A study of Mus musculus with 9 samples.

Results

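The 8 genes described here lie close together on mouse chromosome 9 around Rpl29, which encodes a protein of the large ribosomal subunit. They are Rpl29, Abhd14a, Abhd14b, Acy1, Pcbp4, Parp3, Rrp9 and Dusp7, and they were taken from a table of 54232 genes by their symbols. The members were chosen by position and because the counts of Rpl29, Abhd14a and Abhd14b stood lower together in the double knockout (dKO) libraries, so their values that involve dKO are given as a description. Counts of members past the threshold there stand beside the share of all genes and nothing is read from them. All 8 passed the filter on low counts.

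The series measured RNA by sequencing in regulatory T (Treg) cells sorted from mouse spleen by a Foxp3 YFP reporter, which every group shares. There were 3 groups of 3 libraries: WT, Usp21 KO (genotype label Usp21 Treg KO) and dKO (genotype label Usp21/Usp22 Treg KO). Titles number the libraries as biological samples. The labels used here name no strain, age, sex, Cre driver, clone or treatment, and there is no group with Usp22 deleted alone, so an effect of Usp22 loss alone and one of the joint loss cannot be told apart.

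Usp21 and Usp22 are deubiquitinases, enzymes that remove ubiquitin from proteins. Usp22 is a subunit of the SAGA coactivator complex, where it acts on ubiquitinated histone H2B, and Foxp3 is the transcription factor that defines Treg cells. Ribosomal protein genes are usually expressed in step with one another. Abhd14a and Abhd14b share the alpha/beta hydrolase family, and the remaining members belong to other families.

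In mm10 coordinates the members span chr9:106368632-106485424, all as protein-coding genes in the GENCODE M21 annotation. Dusp7 (ENSMUSG00000053716, plus strand, chr9:106368632-106375724) stands apart, with its start at -60.8 kb from that of Rpl29. Rpl29 (ENSMUSG00000048758) lies on the plus strand at chr9:106429454-106431568. Acy1 (ENSMUSG00000023262, minus strand, chr9:106432981-106438319) and Abhd14a (ENSMUSG00000042210, minus strand, chr9:106440051-106447678) follow it. Abhd14b (ENSMUSG00000042073, plus strand, chr9:106447459-106452923) starts inside the Abhd14a span, and the pair share 207 exon bases on opposite strands. Pcbp4 (ENSMUSG00000023495, plus strand, chr9:106453291-106464012), Parp3 (ENSMUSG00000023249, minus strand, chr9:106470322-106476949) and Rrp9 (ENSMUSG00000041506, plus strand, chr9:106475963-106485424) complete the block. Parp3 and Rrp9 share 20 exon bases. Gpr62 (minus strand, chr9:106463962-106465938), which is not a member, lies inside the block and shares 51 exon bases with Pcbp4. The strand option of the counting is not given in the sources used here, so reads from these shared exon bases may not be separable by gene. The antisense gene Gm28959 shares 551 exon bases with Abhd14b and had 0 counts in all 9 libraries. Since the handling of shared bases is not given, these 0 counts do not show that Abhd14b lost no reads there. The 207 shared bases compare with 2111 exon bases in Abhd14a and 2671 in Abhd14b.

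Promoter sequences were taken from RefSeq (GRCm38.p6), as 300 bases on the gene's own strand. They were found for 6 of the 8 members; Rpl29 and Pcbp4 had no entry. The windows of Abhd14a and Abhd14b, the neighbours that stood low in dKO, are shown with that of Acy1, which lies between Rpl29 and Abhd14a and whose groups overlapped. They lie at chr9:106447629-106447928 (minus strand), chr9:106448390-106448689 (plus strand) and chr9:106438187-106438486 (minus strand), and 461 bases separate the first from the second. The RefSeq start behind the Abhd14b window lies 1181 bases downstream of the outermost GENCODE start of that gene, against 83 bases for Acy1 and 0 for Abhd14a, so the gap and the matches in the Abhd14b window hold for the RefSeq start alone. Capitals mark matches on either strand to 6 motifs: the TATA box (TATAAA), the CCAAT box (CCAAT), the GC box (GGGCGG), the E-box (CACGTG), an ETS site (CCGGAAG) and the NRF1 site, and none of these motifs is part of another.
Abhd14a: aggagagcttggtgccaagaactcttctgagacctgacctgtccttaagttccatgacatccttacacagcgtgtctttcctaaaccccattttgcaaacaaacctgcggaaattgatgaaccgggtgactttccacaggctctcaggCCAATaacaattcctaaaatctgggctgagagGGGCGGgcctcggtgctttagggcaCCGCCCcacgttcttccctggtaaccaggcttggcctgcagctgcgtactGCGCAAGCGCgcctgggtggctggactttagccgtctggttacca
Abhd14b: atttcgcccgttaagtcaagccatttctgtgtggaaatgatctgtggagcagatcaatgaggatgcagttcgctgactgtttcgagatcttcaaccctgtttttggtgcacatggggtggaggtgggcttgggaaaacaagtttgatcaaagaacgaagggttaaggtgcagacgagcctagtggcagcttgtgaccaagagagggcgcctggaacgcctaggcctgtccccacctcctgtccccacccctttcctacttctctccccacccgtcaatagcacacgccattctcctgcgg
Acy1: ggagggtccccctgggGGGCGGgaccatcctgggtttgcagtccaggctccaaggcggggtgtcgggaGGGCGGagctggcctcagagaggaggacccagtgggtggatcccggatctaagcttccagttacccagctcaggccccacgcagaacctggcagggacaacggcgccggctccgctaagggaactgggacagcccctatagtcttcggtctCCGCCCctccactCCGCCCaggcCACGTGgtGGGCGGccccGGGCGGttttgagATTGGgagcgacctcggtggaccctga
The Abhd14a window holds 4 matches, 1 to the CCAAT box, 2 to the GC box and 1 to the NRF1 site, and has 54.7% GC. The Abhd14b window holds none of these letter strings, at 53.7% GC. Acy1 holds 8 matches at 68.3% GC, against a median of 52.7% over all 32851 windows. Of all windows, 37.4% hold the CCAAT box, 35.7% the GC box, 4.6% the NRF1 site, 7.15% the E-box, 8.86% the ETS site and 13.6% the TATA box. A match is a description of the letters only.

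Library totals ran from 18067377 to 40334577 counts. Usp21 averaged 63.3 ± 2.72 CPM (a gene's reads after libraries are scaled to one size) in the WT group, 25.4 ± 2.49 with Usp21 deleted and 27.9 ± 1.59 in dKO (SD, n = 3 each). Usp22, in the same order, averaged 71.1 ± 1.74, 73.8 ± 8.64 and 25.4 ± 3.58. Usp21 was lower in both knockout groups and Usp22 in dKO, without overlap with WT. Foxp3 averaged 659.9 ± 34.2, 730.0 ± 85.3 and 333 ± 36.6 CPM. Treg markers summed to 4049 to 4211 CPM in WT libraries, 4062 to 4394 in Usp21 KO and 3311 to 3582 in dKO, with 2 of 7 lower in dKO, and markers of other cells were higher in dKO in 2 of 13 (myeloid), 3 of 10 (CD8 T and NK), 2 of 8 (erythroid and platelet), 1 of 5 (conventional CD4 T) and 0 of 8 (B cell) genes tested. These counts are calls in dKO against WT (adjusted p under 0.05 in edgeR), where 2.77% of all tested genes were lower and 3.01% higher. The summed CD8 T and NK level was 54.4 to 66.5 CPM in WT libraries, 44.4 to 57.1 in Usp21 KO and 84.0 to 92.7 in dKO. The myeloid sum was 34.9 to 203 CPM in WT libraries, 43.7 to 177 in Usp21 KO and 296.5 to 793 in dKO. Erythroid and platelet markers summed to 49.5 to 67.6, 64.9 to 81.2 and 69.7 to 109 CPM in the same order, B cell markers to 33.5 to 63.4, 37.0 to 56.8 and 62.3 to 70.6, and conventional CD4 T markers to 2665 to 2768, 1784 to 2673 and 2519 to 2857. No marker of any list was at 0 in all libraries. Their part in the members' values was not tested, and in bulk samples fewer cells of a type and less RNA per cell cannot be told apart. Usp21 KO replicate 2 lay farthest from its group, with a median absolute deviation of 0.253 on the log2 scale against 0.111 to 0.191 in the other libraries.

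Levels are compared between genes per kilobase of exon. In WT the order was Parp3 (44.2 ± 2.95 CPM per exon kb), Rpl29 (33.1 ± 1.11), Rrp9 (21.9 ± 2.10), Dusp7 (16.1 ± 2.43), Pcbp4 (7.10 ± 0.293), Acy1 (5.57 ± 0.304), Abhd14a (4.33 ± 0.606) and Abhd14b (2.03 ± 0.224), all SD with n = 3. In dKO the order was Parp3 (34.0 ± 1.84), Rrp9 (15.9 ± 1.56), Rpl29 (13.7 ± 0.609), Dusp7 (12.1 ± 1.20), Pcbp4 (7.04 ± 0.849), Acy1 (5.08 ± 0.684), Abhd14a (2.26 ± 0.233) and Abhd14b (0.525 ± 0.169). Usp21 KO had the order of WT, from Parp3 (41.0 ± 4.42) and Rpl29 (27.0 ± 1.79) to Abhd14b (1.86 ± 0.129). Neighbours in the order had overlapping libraries in 2 places, Rrp9 with Rpl29 in dKO and Rrp9 with Dusp7 in Usp21 KO, while all other neighbours were separate.

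Rpl29, the ribosomal member, had 38.6, 37.0 and 36.2 CPM in the WT libraries, and the Usp21 KO libraries had 32.0, 28.2 and 31.1. The dKO libraries had 16.2, 15.0 and 15.1 CPM. None of the 3 groups overlapped: dKO lay lowest, Usp21 KO between, WT highest. The dKO mean was 41.4% of WT, and its log2 fold change was -1.27 ± 0.08 (SE) against WT and -0.98 ± 0.08 against Usp21 KO. Between Usp21 KO and WT, a comparison that the choice of members did not use but that shares the WT libraries, the difference was -0.29 ± 0.08 with an adjusted p of 0.302 (edgeR, Benjamini-Hochberg, unadjusted p 0.00484), so it did not pass.

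Abhd14b, the less abundant of the paired genes and named from an alpha/beta hydrolase fold, has a human counterpart known to bind a subunit of the TFIID complex. It had 5.91, 4.76 and 5.61 CPM in WT libraries, 4.90, 5.36 and 4.68 in Usp21 KO and 1.87, 0.977 and 1.35 in dKO, where it rested on 61, 20 and 46 reads. The dKO libraries lay below all others, at 25.8% of the WT mean. The log2 fold change was -1.93 ± 0.24 against WT and -1.81 ± 0.24 against Usp21 KO. Usp21 KO and WT overlapped (-0.12 ± 0.23, 95% interval -0.63 to 0.38, adjusted p 0.881 in edgeR), which does not show that they are equal.

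Abhd14a, a hydrolase-fold gene on the opposite strand, had 8.15, 10.6 and 8.70 CPM in WT libraries, 6.84, 8.08 and 7.22 in Usp21 KO and 5.22, 4.25 and 4.85 in dKO. The 3 groups did not overlap, in the order dKO, Usp21 KO, WT. The dKO mean was 52.2% of WT (log2 fold change -0.93 ± 0.16) and 64.7% of Usp21 KO (-0.62 ± 0.16). The Usp21 KO difference from WT was -0.31 ± 0.16, with a 95% interval of -0.66 to 0.04 and an adjusted p of 0.517 in edgeR.

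Between Rpl29 and Abhd14a lies Acy1, aminoacylase 1, which cleaves the acyl group from N-acylated amino acids. Its values were 15.5, 17.3 and 16.7 CPM in WT libraries, 20.1, 17.0 and 16.9 in Usp21 KO and 13.5, 17.3 and 14.4 in dKO. All groups overlapped; the log2 fold changes were -0.14 ± 0.12 (dKO against WT), -0.26 ± 0.12 (dKO against Usp21 KO) and 0.13 ± 0.12 (Usp21 KO against WT, 95% interval -0.15 to 0.40, adjusted p 0.750 in edgeR). Pcbp4, an RNA-binding protein with KH domains, follows Abhd14b. It had 30.9, 28.9 and 31.2 CPM in WT libraries, 35.7, 40.9 and 36.3 in Usp21 KO and 30.4, 33.5 and 26.3 in dKO. Usp21 KO lay above all WT and dKO libraries (0.31 ± 0.10 against WT, unadjusted p 0.0108, adjusted p 0.338 in edgeR, which did not pass), while WT and dKO overlapped (-0.01 ± 0.10). Against Usp21 KO the dKO value of Pcbp4 was -0.33 ± 0.10.

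Parp3, a mono-ADP-ribosyltransferase of the DNA break response, had 162, 175 and 153 CPM in WT libraries, 166, 134 and 156 in Usp21 KO and 132, 127 and 118 in dKO (log2 fold change -0.38 ± 0.09 against WT, no overlap). Rrp9, a component of the U3 small nucleolar particle that acts in ribosomal RNA processing, had 65.3, 57.7 and 69.9, then 66.8, 49.8 and 57.8, then 51.2, 46.5 and 42.1 CPM in the same order (-0.47 ± 0.12 against WT, with no overlap, while dKO and Usp21 KO overlapped). Dusp7, a phosphatase of the MAP kinase ERK, had 56.6, 44.9 and 60.5, then 54.3, 53.6 and 60.6, then 43.9, 36.2 and 42.0 CPM (-0.41 ± 0.12 against WT, no overlap). Against Usp21 KO the dKO values were -0.27 ± 0.09 for Parp3, -0.32 ± 0.12 for Rrp9 and -0.46 ± 0.12 for Dusp7. In Usp21 KO against WT, Parp3 (-0.10 ± 0.09), Rrp9 (-0.14 ± 0.12) and Dusp7 (0.06 ± 0.12) overlapped with WT, with adjusted p of 0.697, 0.689 and 0.896 in edgeR. The 95% intervals were -0.30 to 0.09, -0.40 to 0.12 and -0.20 to 0.31. The Dusp7 value changed sign to -0.062 without WT replicate 2 and to -0.0018 without Usp21 KO replicate 3.

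**Figure D1:**
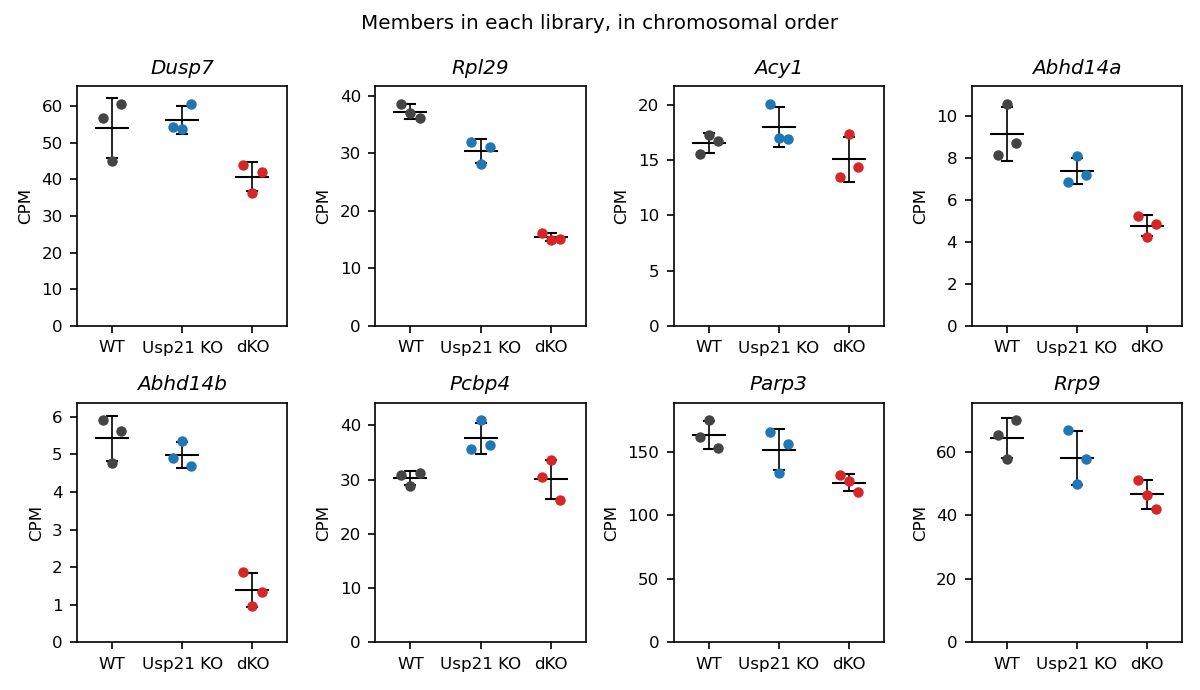
CPM of each member in each of the 3 groups, 1 point per library with the group mean and SD. Rpl29, Abhd14a and Abhd14b are low in all 3 dKO libraries, while Acy1 and Pcbp4 overlap with WT. Parp3, Rrp9 and Dusp7 also lie below every WT library in dKO, by less.

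**Figure D2:**
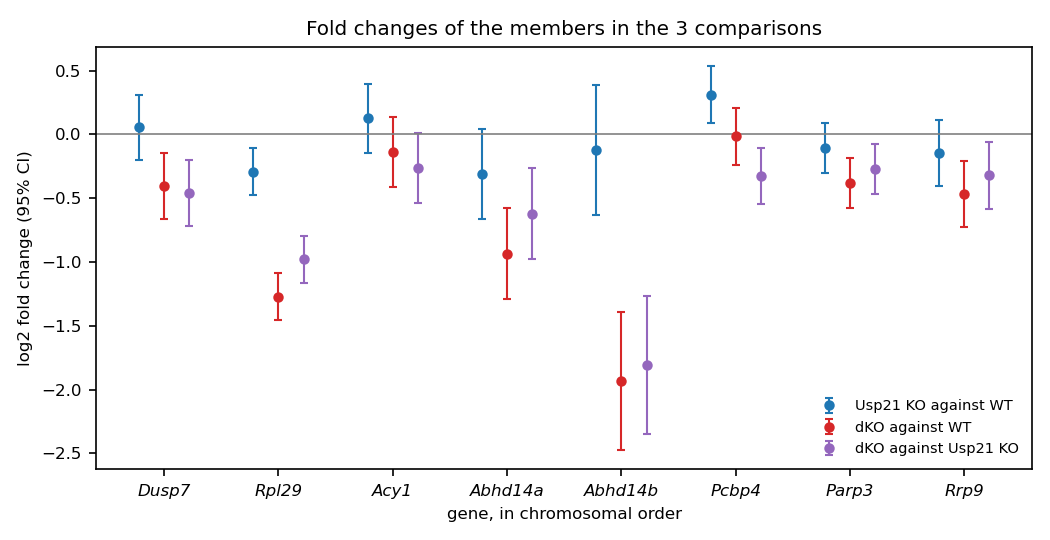
Log2 fold change of each member with its 95% interval in the 3 comparisons. In dKO against WT, Rpl29 (-1.27) and Abhd14b (-1.93) lie farthest from 0 and Acy1 and Pcbp4 nearest.

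Counted over members, 0 of 8 passed in Usp21 KO against WT, in edgeR, DESeq2 and limma voom alike, where 0.0133% of the 14994 tested genes passed in edgeR (0.00667% lower, 0.00667% higher). An unadjusted p under 0.05 was found for 2 of 8, Rpl29 and Pcbp4, beside 10.6% of all genes. The groups did not overlap for 2 members that were lower, Rpl29 and Abhd14a, beside 8% of all genes, and for 1 that was higher, Pcbp4, beside 8.06%. The members' median log2 fold change was -0.11, against 0.0061 over all genes.

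In dKO against WT 5 of 8 were past the threshold, all lower (Rpl29, Abhd14a, Abhd14b, Parp3 and Rrp9), beside 5.78% of all genes (2.77% lower, 3.01% higher). Of the 8, 6 were lower without overlap, beside 18.4% (0 higher, beside 17.6%). In dKO against Usp21 KO 2 of 8 were past it, Rpl29 and Abhd14b, beside 4.9% of all genes (3.2% lower, 1.7% higher). There 6 were lower without overlap, beside 14.3% (0 higher, beside 13.1%). The members' medians were -0.44 and -0.39, against -0.0095 and -0.0065 over all genes; these comparisons share the dKO libraries, the first was used to choose the members, and nothing is read from the counts. Against WT, Parp3 and Rrp9 fell short of the threshold when any 1 WT or dKO library was left out, and Abhd14a without dKO replicate 2, with 2 to 4 members past it. The count over all genes then fell from 866 of 14994 to between 193 of 15568 and 379 of 15112. In this comparison the deviations of same-numbered libraries correlated at 0.118 to 0.259. With the replicate number as a block over the 9 libraries 5 members were past the threshold, with Dusp7 and without Parp3. With the block in the 6 libraries of dKO and WT, a fit chosen after seeing the data, 6 were, Parp3 and Dusp7 both included, while the count over all genes went from 866 of 14994 to 2961 of 14706. Against Usp21 KO, 5 were past it without Usp21 KO replicate 2, while the count over all genes went from 735 of 14994 to 2192 of 15541.

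Within a library, ratios between genes do not depend on the scaling. The median of the other large-subunit genes was taken from log2 CPM with a small count added, so the difference from it may depend on the scaling. The log2 ratio of Rpl29 to the median of the other large-subunit genes was -0.89, -0.90 and -0.82 in WT libraries, -0.94, -0.63 and -0.88 in Usp21 KO and -1.76, -1.76 and -1.68 in dKO. The dKO libraries lay below all others, and WT and Usp21 KO overlapped. The log2 ratio of Abhd14b to Abhd14a was -0.46, -1.15 and -0.63 in WT libraries, -0.48, -0.59 and -0.62 in Usp21 KO and -1.48, -2.12 and -1.84 in dKO, and here too every dKO library lay below all others. The log2 ratio of Rpl29 to Acy1 was 1.32, 1.10 and 1.11, then 0.67, 0.73 and 0.88, then 0.27, -0.21 and 0.069 in WT, Usp21 KO and dKO, and no group overlapped another. That of Abhd14a to Acy1 was -0.93, -0.71 and -0.94, then -1.55, -1.07 and -1.23, then -1.37, -2.03 and -1.57 in the same order. For this ratio dKO lay below WT but overlapped with Usp21 KO. The ratio of Abhd14b to Pcbp4 averaged -2.49 ± 0.108, -2.92 ± 0.0478 and -4.47 ± 0.564, with every dKO library below all others. The log2 ratio of Parp3 to Rrp9 averaged 1.35 ± 0.236 in WT libraries, 1.39 ± 0.0698 in Usp21 KO and 1.43 ± 0.0649 in dKO, so the dKO mean lay within 1 SD of WT.

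**Figure D3:**
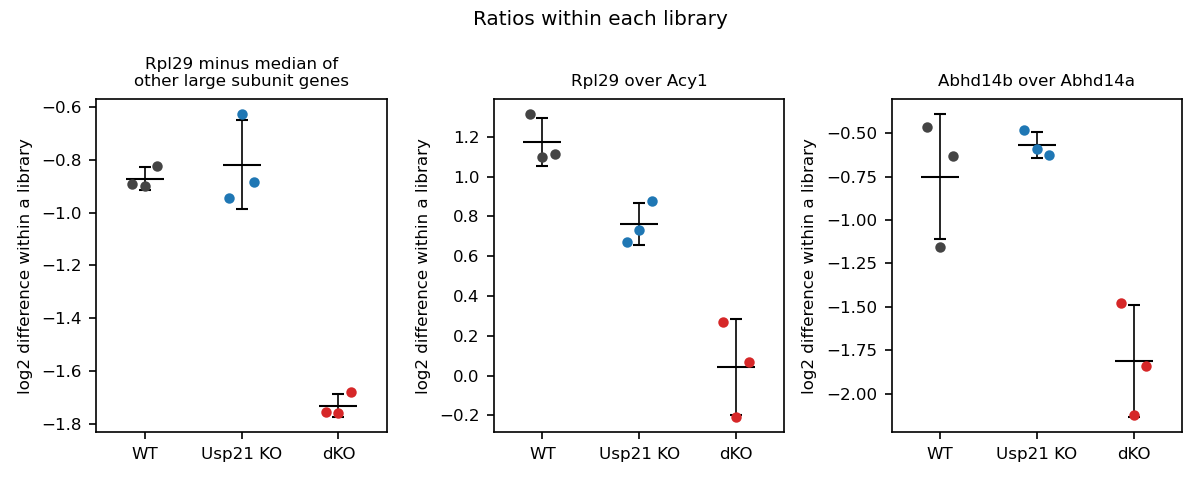
Log2 ratios between members, and of Rpl29 to the median of other large-subunit genes, within each library. Points are libraries, lines the group mean and bars its SD (n = 3), and in all 3 panels every dKO point lies below those of WT and Usp21 KO. The ratio of Abhd14a to Acy1, which is not drawn, overlapped between dKO and Usp21 KO.

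Rpl29 has many processed copies. How reads that match several of them were counted is not given in the sources used here, so sums over copies may leave such reads out. By sequence match (at least 90% identity over 200 bases), 77 pseudogenes in the table summed to 14.0, 12.7 and 14.4 CPM in WT libraries, 12.2, 11.2 and 13.9 in Usp21 KO and 9.25, 9.43 and 12.1 in dKO, 75.0% of WT in dKO. Rpl29 with those copies stood at 50.4% of WT in dKO, against 41.4% for Rpl29 alone. Another 3 genes match by the same rule and are not in that sum. One is Uimc1, a protein-coding gene with 100% identity to Rpl29 over 214 bases, at 115 ± 8.41 CPM in WT libraries, 114 ± 9.42 in Usp21 KO and 105 ± 4.05 in dKO (SD, n = 3), and the other 2 summed to under 1 CPM in every library. The sum of Rpl29 and all 80 matching genes stood at 78.6% of WT in dKO, and those 80 alone at 89.3%. In WT, Uimc1 gave 115 of the 167 CPM in the first sum, so its 78.6% is not a level of Rpl29. How many reads of Uimc1 fall in the matching stretch was not tested. The other members had no copy with a count.

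Among the 49 other large ribosomal subunit genes tested, 14 passed lower in dKO against WT and 0 higher (21 in DESeq2 and 14 in limma voom), with a median of -0.39 against -0.0095 over all genes; examples are Rpl37a (-0.62 ± 0.09, adjusted p 0.0045) and Rpl18 (-0.50 ± 0.08, adjusted p 0.00788, edgeR). Over all 14994 genes, 866 passed in that comparison in edgeR, 1581 in DESeq2 and 933 in limma voom. Rpl29 had the lowest value of all 50 in that comparison, the one by which it was chosen. In Usp21 KO against WT, 0 of the 49 passed in edgeR and limma voom, 6 in DESeq2 and 23 had an unadjusted p under 0.05, with a median of -0.28. Over all 14994 genes, 2 passed there in edgeR, 2 in limma voom and 219 in DESeq2, and 10.6% had an unadjusted p under 0.05 in edgeR. Rpl29 was 25th of 50 from the lowest. Against Usp21 KO, 0 of the 49 passed lower in dKO and 1 higher, Rpl13a (0.36 ± 0.08, adjusted p 0.0391 in edgeR), named after its value was seen. Rpl29 was 2nd of 50 from the lowest there. Rpl34 (-1.04 ± 0.71, which did not pass), also named after its value was seen, was lowest.

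The families of the other members were counted in dKO against WT with the members left out. Over all 14994 genes, 866 passed there in edgeR, 1581 in DESeq2 and 933 in limma voom. An unadjusted p under 0.05 in edgeR was found for 3363 of the 14994. Of 16 other alpha/beta hydrolase domain genes, 0 passed in edgeR, DESeq2 or limma voom and 1 had an unadjusted p under 0.05, Abhd4 (0.28 ± 0.13, adjusted p 0.211 in edgeR). Of 4 other poly(C)-binding and related KH genes 1 fell, Pcbp1 (-0.38 ± 0.07, adjusted p 0.0124 in edgeR). Of 18 other PARP family genes 0 passed with any of the 3 tools and 1 had an unadjusted p under 0.05, Parp6 (-0.32 ± 0.10, adjusted p 0.102). Of 32 other U3 and small-subunit processome genes 3 passed lower in edgeR, Utp3 (-0.36), Nop14 (-0.34) and Utp14a (-0.34, named after its value was seen), and 0 higher, while 4 passed in DESeq2 and 2 in limma voom. Of 9 other MAP kinase phosphatases and 8 other acyl and acetyl hydrolases, 0 passed with any of the tools and 0 had an unadjusted p under 0.05.

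Within 1 Mb of the Rpl29 start lie the starts of 21 other tested genes, of which Gpr62 lies inside the block. It averaged 0.248 CPM in WT libraries, 0.411 in Usp21 KO and 0.126 in dKO (log2 fold change -0.93 ± 0.59 in dKO against WT, adjusted p 0.383 in edgeR). In dKO against WT, 3 passed (14.3% of them, against 5.78% of all tested genes), 2 higher and 1 lower, with a median of -0.14. Col6a4, a collagen VI chain at -440 kb from the Rpl29 start, had 0.381, 0.332 and 0.405 CPM in WT libraries, 0.360, 0.287 and 0.507 in Usp21 KO and 9.28, 9.62 and 8.14 in dKO. It rose by 4.57 ± 0.25 on the log2 scale (adjusted p 5.18e-05) against WT and by 4.56 ± 0.26 (6.25e-05) against Usp21 KO, and it passed when any 1 library of either comparison was left out. Twf2, an actin-binding twinfilin, averaged 267 ± 17.7 CPM in WT, 264 ± 21.4 with Usp21 deleted and 208 ± 12.0 in dKO (-0.36 ± 0.08, adjusted p 0.0308). Cacna2d2, an auxiliary calcium channel subunit, averaged 3.29 ± 0.786, 3.72 ± 0.535 and 6.03 ± 0.704 (0.86 ± 0.22, adjusted p 0.0466). Twf2 and Cacna2d2 lost their calls when any 1 WT or dKO library was left out, which left 1 gene. The count over all genes then fell from 866 to between 193 and 379. With the replicate block in the 6 libraries of dKO and WT, Cish, Poc1a and Wdr82 passed as well as Col6a4, Twf2 and Cacna2d2. This gave 6 of 20 tested, beside 2961 of all 14706 genes.

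In dKO against Usp21 KO, 4 of the 21 passed (19%, against 4.9% of all tested genes): Col6a4 higher, and Twf2 (-0.34, adjusted p 0.0416), Ppm1m (-0.34 ± 0.07, adjusted p 0.0263), a protein phosphatase, and 6430571L13Rik (-1.12 ± 0.23, adjusted p 0.0244) lower. The median of the 21 was -0.18, beside -0.12 for genes at 1 to 2 Mb and -0.0065 over all genes. Without 1 library 1 to 10 passed, 10 of them without Usp21 KO replicate 2. Over all genes 168 to 2192 passed in these fits, the 2192 of 15541 also being without Usp21 KO replicate 2. In Usp21 KO against WT 0 of 21 passed in edgeR, DESeq2 or limma voom, and 3 had an unadjusted p under 0.05 in edgeR, beside 10.6% of all genes. The nearest tested genes outside the block were Poc1a (0.65 ± 0.22, adjusted p 0.114) and Tex264 (-0.11 ± 0.07, adjusted p 0.374), both for dKO against WT.

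Farther along chromosome 9, the share that passed in dKO against WT was 6.52% of 46 genes at 1 to 2 Mb, 10% of 80 at 2 to 5 Mb, 4.08% of 49 at 5 to 10 Mb and 8.24% of 619 beyond, and on other chromosomes it was 5.6% of 14171. The median log2 fold change was -0.14 at 1 to 2 Mb, as within 1 Mb. It was -0.066 at 2 to 5 Mb, -0.0092 at 5 to 10 Mb, 0.016 beyond and -0.0091 on other chromosomes. Within 1 Mb of Usp21 it was 6.52% of 46, and within 1 Mb of Foxp3 9.38% of 32. Within 1 Mb of Usp22, 0 of 31 passed in edgeR and limma voom and 1 in DESeq2. An unadjusted p under 0.05 in edgeR was found for 4 of the 31, beside 3363 of all 14994 genes. No test was made of whether the shares or the medians differ.

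**Figure D4:**
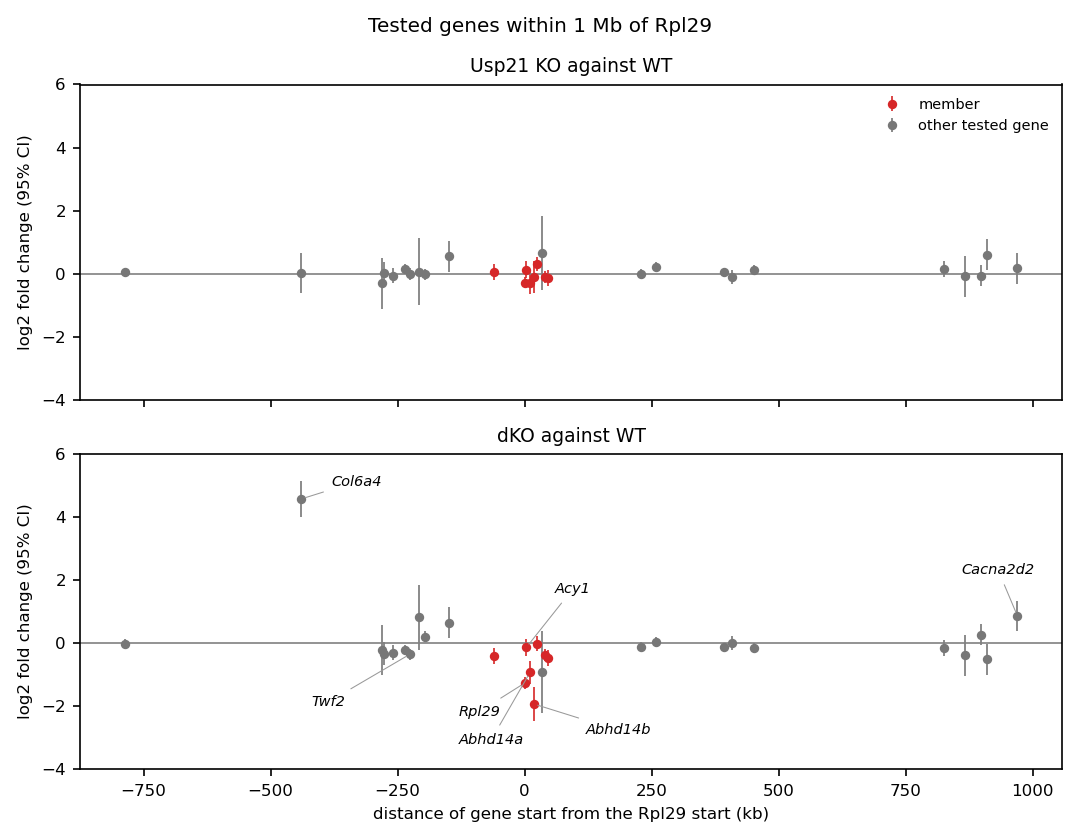
Log2 fold change with 95% interval of each tested gene within 1 Mb of Rpl29, against the distance of its start from that of Rpl29, with members in red. In dKO against WT (lower panel) Rpl29, Abhd14a and Abhd14b lie below their immediate neighbours Acy1 and Pcbp4, and Col6a4 lies far above 0.

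Genes with the profile nearest to a member were searched among 10397 tested genes with a mean log2 CPM of at least 1 and an official name, by the root mean square distance of centred log2 CPM over the 9 libraries; since dKO is part of each profile, the distances are a description. Nearest to Rpl29 were Matn2 (0.112), Gimap6 (0.141) and Gimap3 (0.144), with 25 genes nearer to it than Abhd14a (0.225) and 662 nearer than Abhd14b (0.424). For Abhd14a they were Hmgn3 (0.125), Phf11a (0.125) and Supt4a (0.129), with 56 genes nearer than Rpl29 and 8995 nearer than Abhd14b (0.572). Abhd14b had Sec16b (0.251), Ces2c (0.298) and Usp22 (0.306) nearest, with 13 genes nearer than Rpl29 and 54 nearer than Abhd14a. Of these nearest genes, only Hmgn3 lies on chromosome 9.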

How the data were processed

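RNA of Treg cells was sequenced in 9 libraries, 3 per group, and the authors deposited a table of raw counts, with Ensembl genes in rows and libraries in columns. Per the submitters' processing notes, the tools were cutadapt 1.13, STAR, HTSeq 0.6.1p1 and DESeq2 1.14.1 and the build mm10; which step used which tool, how strand was treated and which annotation release served are not given in the sources used here. Counts were tested with edgeR 4.0.16 (R 4.3.3) in 1 quasi-likelihood fit to the 9 libraries, with a group term alone, TMM scaling and filterByExpr (14994 genes). The threshold was a p under 0.05 after Benjamini-Hochberg adjustment over all tested genes. CPM used TMM-scaled library sizes; per-kilobase values used GENCODE M21 exon length. No pair of libraries agreed within sampling noise. The fit was also run on simulated counts with 200 genes changed in dKO and no pairing of libraries, and its result is not given here. DESeq2 1.42.0 and limma 3.58.1 voom were alternatives, with other scalings, filters, a replicate block and each library left out. Replicate numbers come from the titles, which name no shared animal or batch. Deviations from the group means correlated over 0.1 in all 3 same-numbered pairs of dKO and WT (0.118 to 0.259). They did so in 1 of 3 pairs of Usp21 KO and WT and 0 of 3 of dKO and Usp21 KO. Differently numbered libraries also correlated over 0.1, such as WT 3 and dKO 1 (0.101) and WT 2 and Usp21 KO 1 (0.49). Whether libraries are paired is therefore not known, and the main fit has no pairing term.

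The members and gene lists were chosen with earlier results of these data known. Named neighbours are those within 1 Mb that passed in any comparison and the nearest tested gene on each side; named list genes are up to 3 with the smallest p in dKO against WT, apart from those said to be named after their values were seen; genes most like a member are the 3 at the smallest distance. Precision is limited by 3 libraries per group, with totals from 18067377 to 40334577 counts.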

Additional observations from a re-analysis of the deposited data

How the results depend on the processing

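In Usp21 KO against WT, 0 members and 0 neighbours within 1 Mb passed under all 14 alternatives, and the log2 fold change of Dusp7 (0.06 with all libraries) ranged from -0.062 to 0.15 with 1 library left out, and was -0.062 without WT replicate 2 and -0.0018 without Usp21 KO replicate 3. In dKO against WT, 5 members passed; with library totals 3 did, and with 1 library left out 2 to 4. Of the neighbours 3 passed; with the 6 libraries of the comparison 5 did, and with 1 library left out 1. In dKO against Usp21 KO, 2 members passed; with the stricter filter 4, with DESeq2 4, and with 1 library left out 2 to 5, the 5 being without Usp21 KO replicate 2. Of the neighbours 4 passed; with library totals 2, with the 6 libraries 1, and with 1 library left out 1 to 10, the 10 being without Usp21 KO replicate 2. Over all genes, 866 of 14994 passed in dKO against WT, 1043 with library totals, 2315 of 14706 with the 6 libraries and 193 to 379 with 1 left out. Against Usp21 KO, 735 passed, 935 with library totals, 806 of 12675 with the stricter filter, 1696 with DESeq2 and 147 of 14440 with the 6 libraries. With 1 library left out 168 to 2192 did, the 2192 of 15541 being without Usp21 KO replicate 2. The cause of these shifts was not tested. In dKO against WT, same-numbered libraries correlated at 0.118 to 0.259, and 6 of 6 libraries matched best with their own number. Whether they are paired is not known. Correlations of same-numbered libraries were -0.268 to 0.161 in Usp21 KO against WT and -0.136 to 0.0732 in dKO against Usp21 KO. In each of these, 1 of 6 libraries matched best with its own number. With the replicate block over 9 libraries, 5 members passed in dKO against WT, 3 in dKO against Usp21 KO and 0 in Usp21 KO against WT, with 3, 2 and 0 neighbours and 606, 461 and 2 of all genes. With the block in the 6 libraries of dKO and WT, chosen after seeing the data, 6 members, 6 neighbours and 2961 of all genes passed. Library totals moved the median of all genes in dKO against WT from -0.0095 to 0.090 and the split from 451 higher and 415 lower to 807 and 236; against Usp21 KO it went from 255 and 480 to 654 and 281. Rpl29 ranged from -1.31 to -1.17, Abhd14a from -1.01 to -0.82 and Abhd14b from -2.20 to -1.75 in dKO against WT. Abhd14b rested on 20 to 61 reads in dKO, which limits its precision.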
